A study of Mus musculus with 9 samples.

Results

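Calcium, pacemaker and sodium channel subunits carry the inward currents of the heartbeat, and 8 genes of this group were followed through postnatal growth of the mouse heart. They were Cacna1c, Cacna1g, Cacna1h, Cacnb2, Cacna2d1, Hcn2, Hcn4 and Scn4b. A gene entered when a probe set of the array carried its symbol and no other, and where a gene had several such probe sets the one with the highest mean signal stood for it. All 8 listed genes had one, out of 19938 named genes tested, and 9 probe sets carried their symbols.

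The 9 arrays held total RNA of cardiac muscle from C57BL/6 mice at 24 hours, 7 days and 10 weeks of age, with 3 arrays per age, on the Affymetrix Mouse Gene 1.0 ST platform. No mouse was labelled as mutated or treated, the labels gave no sex, and they did not say whether chambers were kept together or whether a replicate was 1 mouse or a pool. Nothing says that replicates came from separate animals, so the p-values measure only the spread between these arrays, which may be technical. Signals are on a log2 scale, where 1 unit is a 2-fold difference.

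Voltage-gated calcium channels are built on a pore-forming alpha-1 subunit that sets the type of current. L-type channels, with the Cacna1c pore, trigger contraction in every working heart muscle cell and need the intracellular beta subunit (Cacnb2) and the extracellular alpha-2-delta subunit (Cacna2d1) to reach the membrane and gate normally. T-type channels (Cacna1g and Cacna1h) open at more negative voltages and are known from the fetal heart and from pacemaker cells. HCN channels carry the pacemaker current that starts each beat in the sinus node, where Hcn4 is the main isoform, while Hcn2 is the isoform known from the working ventricle. Scn4b encodes a single-pass beta subunit that modulates voltage-gated sodium channels.

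By 10 weeks 3 of the 8 genes had risen and 3 had fallen against 24 hours. Hcn2, Scn4b and Cacna2d1 rose, by 3.76-fold, 4.12-fold and 1.85-fold. Cacna1g, Cacna1h and Cacna1c fell, by 2.50-fold, 1.65-fold and 1.30-fold. Hcn4 and Cacnb2 did not pass the test. The 6 called genes of 8 stand beside a background of 40.1% of all genes called between these ages (19.5% higher and 20.6% lower), with a gene called at an adjusted p under 0.05.

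The changes fell into different parts of postnatal life. In the first week 1 gene rose (Hcn2) and 2 fell (Cacna1c and Cacna1h), where 10.1% of all genes were called (5.27% higher and 4.81% lower). Between 7 days and 10 weeks 4 rose (Hcn2, Scn4b, Cacna2d1 and Cacna1c) and 2 fell (Cacna1g and Cacna1h), where 35.9% of all genes were called (17.0% higher and 18.9% lower). The 3 comparisons share arrays pairwise. The median log2 difference of the 8 genes was -0.04, 0.09 and -0.14 for 7 days against 24 hours, 10 weeks against 7 days and 10 weeks against 24 hours, beside -0.0017, 0.0391 and 0.0381 over all genes, so the rises and falls among these genes did not add up to a common direction.

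**Figure D1:**
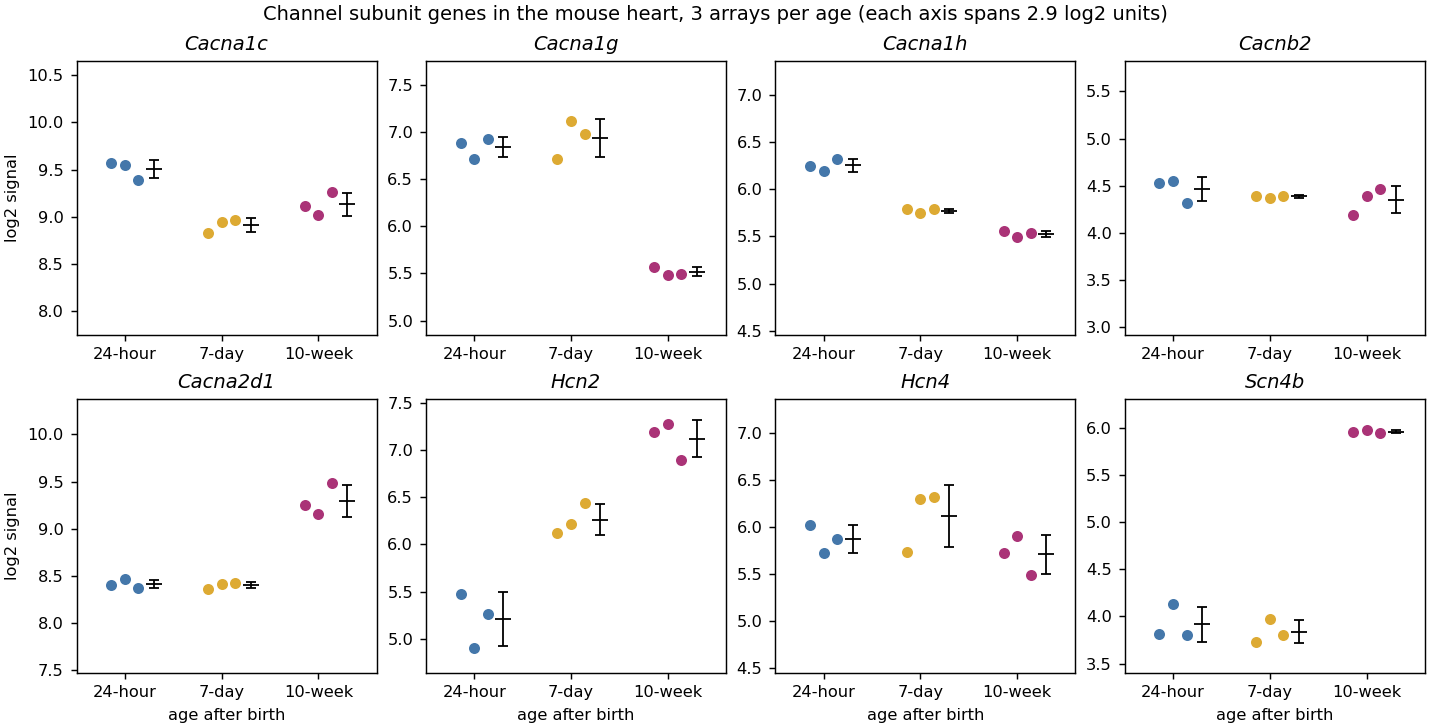
Log2 signal (vertical axis) of the 8 channel genes on each array, by age (horizontal axis); dots are arrays, in replicate order from left to right, and bars are the mean ± SD of 3 arrays. Each vertical axis has its own position but the same span of 2.9 log2 units; Scn4b and Cacna2d1 are level at 24 hours and 7 days and higher at 10 weeks, Cacna1g is lower only at 10 weeks among these ages, and Hcn2 steps up at each age.

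Promoter sequence is shown for the 3 genes that rose to adulthood and for Hcn4, the HCN isoform that did not, so that the upstream DNA of both HCN genes can be set side by side. Each is the 250 bases before the RefSeq start of the gene on the plus strand of build GRCm38.p6: Hcn2 at chr10:79716384-79716633, Cacna2d1 at chr5:15934441-15934690, Scn4b at chr9:45138374-45138623 and Hcn4 at chr9:58822699-58822948. Capitals mark matches on either strand to the GC box GGGCGG (read as CCGCCC on the other strand) or to the T-box core AGGTGT (read as ACACCT).
Hcn2: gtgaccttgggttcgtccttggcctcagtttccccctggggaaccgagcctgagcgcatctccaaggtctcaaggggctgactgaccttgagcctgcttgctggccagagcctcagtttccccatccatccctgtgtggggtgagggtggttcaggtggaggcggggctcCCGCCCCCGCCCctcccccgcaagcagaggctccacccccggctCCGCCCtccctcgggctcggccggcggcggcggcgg
Cacna2d1: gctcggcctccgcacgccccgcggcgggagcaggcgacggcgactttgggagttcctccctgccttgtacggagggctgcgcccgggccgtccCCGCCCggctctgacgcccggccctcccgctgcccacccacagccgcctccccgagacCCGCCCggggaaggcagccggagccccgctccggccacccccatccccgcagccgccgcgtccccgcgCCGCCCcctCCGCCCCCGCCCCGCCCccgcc
Scn4b: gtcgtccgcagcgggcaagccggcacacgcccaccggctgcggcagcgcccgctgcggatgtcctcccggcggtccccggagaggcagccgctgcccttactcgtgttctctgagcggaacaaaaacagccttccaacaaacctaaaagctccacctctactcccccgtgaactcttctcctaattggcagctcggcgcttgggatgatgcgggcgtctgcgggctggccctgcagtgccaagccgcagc
Hcn4: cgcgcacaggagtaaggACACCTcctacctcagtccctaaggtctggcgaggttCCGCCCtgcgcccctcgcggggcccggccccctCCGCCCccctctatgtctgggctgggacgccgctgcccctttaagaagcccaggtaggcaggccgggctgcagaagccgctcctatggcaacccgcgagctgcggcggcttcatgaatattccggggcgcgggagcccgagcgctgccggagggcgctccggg

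The GC box, bound by SP-family factors, matched 3 times in the Hcn2 window, 6 times in that of Cacna2d1 and 2 times in that of Hcn4, with no match in that of Scn4b. Of all 32817 RefSeq windows of this length, 32.7% hold at least 1 GC box. The T-box core, read by factors such as Tbx3 and Tbx5, matched once, in the Hcn4 window at position -233 from the start, and is held by 11.8% of all windows. The other motifs searched on both strands were TATAAA (12.4% of all windows), the MEF2 site, CTA and TAG with 4 bases between them (3.2%), the GATA site, GATA after A or T and before A or G (26.6%), and CAGCACC, one part of the REST element (5.73%), and none of them matched in these 4 windows. GC content was 70.4% for Hcn2, 82.4% for Cacna2d1, 66.0% for Scn4b and 71.2% for Hcn4, against a median of 52.4% over all windows. The Cacna1c and Cacnb2 windows of the table are not printed, and Cacna1g and Cacna1h have no window in it.

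Cacna1c, the pore of the L-type channel, was highest in the newborn heart. Its log2 signal was 9.57, 9.55 and 9.39 on the 24-hour arrays, 8.83, 8.94 and 8.97 on the 7-day arrays and 9.11, 9.02 and 9.26 on the 10-week arrays. All 24-hour arrays lay above all others, and all 10-week arrays lay above all 7-day arrays. Cacna1c fell by 0.59 ± 0.08 (SE) in the first week (adjusted p = 0.000823) and was 0.37 lower at 10 weeks than at 24 hours (log2 difference -0.37, adjusted p = 0.00233). The return from 7 days to 10 weeks, a log2 difference of 0.22 ± 0.08, just passed (adjusted p = 0.0447). That call was lost in 14 of 21 alternative settings, 7 of the 9 that leave out 1 array among them (adjusted p 0.058 to 0.141), and only 10-week replicate 2 and 24-hour replicate 3 could be left out with the call kept.

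Cacna1g, the T-type pore known from the sinus node, kept a newborn level through the first week and was lower in the adult heart. Its signal was 6.88, 6.72 and 6.92 at 24 hours, 6.72, 7.12 and 6.97 at 7 days and 5.57, 5.49 and 5.50 at 10 weeks. The younger ages overlapped each other, and every 10-week array lay more than 1 log2 unit below every younger one. Between 7 days and 10 weeks it fell by 1.42 ± 0.10 on the log2 scale, a 2.67-fold change (adjusted p = 1.67e-06), and against 24 hours by 1.32 (adjusted p = 1.98e-06). The first-week difference was 0.10 with a 95% interval of -0.12 to 0.31 (adjusted p = 0.7).

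Cacna1h, the other T-type pore of the heart, took a different course and fell in both intervals. Its signal was 6.25, 6.19 and 6.32 at 24 hours, 5.79, 5.75 and 5.79 at 7 days and 5.55, 5.49 and 5.54 at 10 weeks. The 3 ages did not overlap and stood in falling order. Cacna1h fell by 0.48 ± 0.06 in the first week (adjusted p = 0.000667), by 0.24 ± 0.06 from then to 10 weeks (adjusted p = 0.0078) and by 0.72 in all, or 1.65-fold (adjusted p = 3.79e-06). Without the pair of 7-day arrays that carried brown fat RNA, which leaves 1 array of that age and assumes that it varies like the others, the later step was -0.26 with an adjusted p of 0.0875.

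Cacna2d1, the alpha-2-delta subunit that draws L-type channels to the membrane and is the target of gabapentin, rose only after the first week among the intervals sampled. Its signal was 8.40, 8.46 and 8.38 at 24 hours, 8.36, 8.42 and 8.43 at 7 days and 9.25, 9.15 and 9.48 at 10 weeks. The younger ages overlapped each other, and all adult arrays lay above all younger ones. Cacna2d1 rose by 0.90 ± 0.08 from 7 days to 10 weeks, or 1.86-fold (adjusted p = 8.2e-06). The first-week difference was -0.01, with a 95% interval of -0.18 to 0.16 (adjusted p = 0.969). Its second probe set, the only other one among these genes, gave the same course in the fit over all features of the array, with 0.92 ± 0.08 after the first week (adjusted p = 5.97e-05) and -0.08 within it (adjusted p = 0.763).

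Cacnb2, the intracellular beta subunit, gave a dim signal with no call in any comparison. It read 4.53, 4.55 and 4.32 at 24 hours, 4.40, 4.37 and 4.40 at 7 days and 4.19, 4.40 and 4.47 at 10 weeks. All 3 ages overlapped, and every array lay under 5.54, the median of all tested values. The 95% interval of the difference between 10 weeks and 24 hours ran from -0.30 to 0.08 (adjusted p = 0.341). The platform table ties this probe set to 1 accession, a cDNA clone, and to 0 RefSeq transcripts, so how much of Cacnb2 expression it reads is unknown here.

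**Figure D2:**
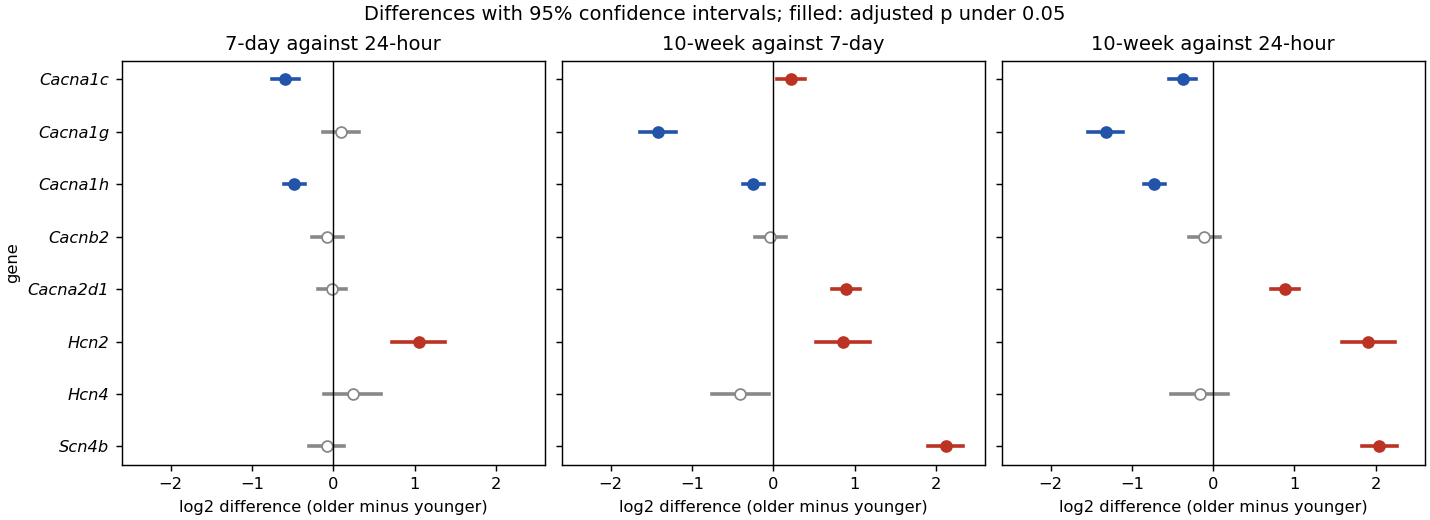
Log2 difference, older minus younger age (horizontal axis), of the 8 channel genes in the 3 comparisons (panels), with 95% confidence intervals from the limma fit to 9 arrays; filled red and blue points were called higher and lower at an adjusted p under 0.05, and open grey points were not called. Hcn2 is right of 0 in every panel and Cacna1h left of it, while the interval of Hcn4 crosses 0 in 2 panels and ends at -0.05 in the panel of 10 weeks against 7 days.

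Hcn2, the pacemaker channel isoform of the working ventricle, rose at both steps. Its signal was 5.47, 4.91 and 5.26 at 24 hours, 6.12, 6.22 and 6.44 at 7 days and 7.19, 7.28 and 6.90 at 10 weeks. The ages did not overlap and stood in rising order, and all 24-hour arrays lay under the median of all tested values. Hcn2 rose by 1.05 ± 0.15 in the first week (2.07-fold, adjusted p = 0.0015), by 0.86 ± 0.15 thereafter (1.82-fold, adjusted p = 0.000976) and by 1.91 in all (3.76-fold, adjusted p = 2.66e-06). Without the 7-day arrays with brown fat RNA the first-week rise was 0.91, with an adjusted p of 0.0874.

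Hcn4, the main pacemaker channel of the sinus node, was not called in any comparison. It read 6.02, 5.73 and 5.88 at 24 hours, 5.74, 6.29 and 6.31 at 7 days and 5.73, 5.91 and 5.49 at 10 weeks. The ages all overlapped, and 7-day replicate 1 lay more than 0.5 below both other arrays of its age. The log2 differences were 0.24 (95% interval -0.11 to 0.59, adjusted p = 0.478) in the first week and -0.40 (-0.76 to -0.05, adjusted p = 0.0721) between 7 days and 10 weeks. Over the whole span the difference was -0.17 (-0.52 to 0.19, adjusted p = 0.447), an interval that leaves room for a fall of up to 0.52 on the log2 scale. The middle value turns on 7-day replicate 1: without that array it was -0.59 (adjusted p = 0.00527), and without both others of that age it was -0.03 (adjusted p = 0.946). It was also called when dim genes were left out of the fit (adjusted p = 0.0467).

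Scn4b, the sodium channel beta subunit, had the steepest adult rise of the 8 genes. It read 3.81, 4.13 and 3.80 at 24 hours, 3.73, 3.97 and 3.81 at 7 days and 5.96, 5.97 and 5.95 at 10 weeks. The younger ages overlapped, and the adult arrays lay close together and far above them. Scn4b rose by 2.12 ± 0.10 between 7 days and 10 weeks, or 4.35-fold (adjusted p = 1.03e-07), and differed by -0.08 in the first week (95% interval -0.29 to 0.13, adjusted p = 0.753). The younger signals were dim: 4 of those 6 arrays lay under 3.91, the 25th percentile of all tested values. With every value raised to that percentile the rise was 2.03 (adjusted p = 5.47e-06).

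Counted by arrays that do not overlap, 3 of the 8 genes separated 7 days from 24 hours (27.1% of all genes did), 6 separated 10 weeks from 7 days (44.3%) and 6 separated 10 weeks from 24 hours (48.2%). In each comparison these were the genes called. The call of 20 of the 24 pairs of gene and comparison changed under none of the alternative settings. The other 4 pairs are those described above for Cacna1c, Cacna1h, Hcn2 and Hcn4.

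The balance between subunits was compared within each array as a log2 ratio of signals, which removes any shift of a whole array. Probe sets differ in how strongly they bind, so only the change of a ratio with age can be read. The 3 ages were compared by an exact permutation test over all 1680 ways of placing 9 arrays into 3 ages. The p-values of 6 ratios were adjusted together. The smallest unadjusted p the test can give is 0.00357, which became 0.00429 after the adjustment in these data.

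The ratio of Cacna1g to Cacna1c rose in the first week and fell well below its newborn level by adulthood. It was -2.69, -2.83 and -2.47 at 24 hours, -2.11, -1.83 and -1.99 at 7 days and -3.54, -3.53 and -3.77 at 10 weeks (adjusted p = 0.00429, exact test). Relative to the L-type pore, the T-type gene Cacna1g was lowest in the adult arrays. Cacna1h moved less against Cacna1c, with means of -3.25, -3.14 and -3.60 in order of age (adjusted p = 0.0107, exact test), and its 24-hour and 7-day arrays overlapped.

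The T-type pair itself changed in balance. The ratio of Cacna1g to Cacna1h was 0.63, 0.53 and 0.60 at 24 hours, 0.93, 1.37 and 1.19 at 7 days and 0.02, -0.01 and -0.04 at 10 weeks (adjusted p = 0.00429, exact test). It was highest at 7 days, when Cacna1h had fallen and Cacna1g had not, and the 3 ages did not overlap.

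The ratios of the accessory subunits to the L-type pore changed with age. The ratio of Cacna2d1 to Cacna1c rose at both steps, from -1.17, -1.09 and -1.02 at 24 hours to -0.47, -0.53 and -0.54 at 7 days and 0.14, 0.14 and 0.22 at 10 weeks (adjusted p = 0.00429, exact test). In the first week Cacna1c fell while Cacna2d1 was not called, and later Cacna2d1 rose. The ratio of Cacnb2 to Cacna1c had means of -5.04, -4.52 and -4.78 (adjusted p = 0.00429, exact test), with a dim Cacnb2 that was not called itself. Its steps of 0.51 and -0.25 mostly repeat those of Cacna1c in reverse (-0.59 and 0.22), so this ratio says little about Cacnb2.

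Between the pacemaker isoforms the ratio of Hcn4 to Hcn2 fell at each age. It was 0.55, 0.82 and 0.61 at 24 hours, -0.39, 0.07 and -0.13 at 7 days and -1.46, -1.37 and -1.40 at 10 weeks (adjusted p = 0.00429, exact test). The ages did not overlap. The mean fell by 2.07 over the whole span, while Hcn2 alone rose by 1.91.

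**Figure D3:**
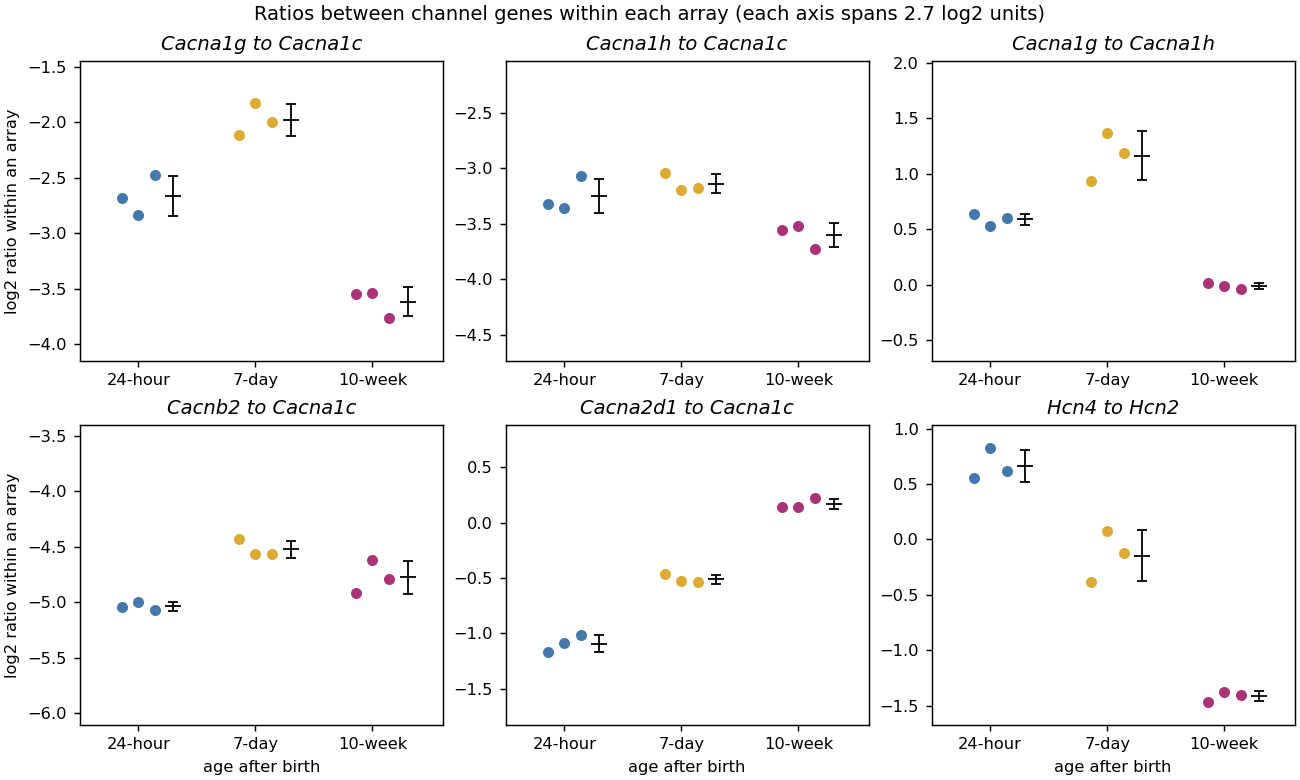
Log2 ratio of 2 channel genes within each array (vertical axis) by age (horizontal axis); dots are arrays and bars are the mean ± SD of 3 arrays. Every panel spans 2.7 log2 units; Hcn4 to Hcn2 falls and Cacna2d1 to Cacna1c rises at each age, and Cacna1g to Cacna1h peaks at 7 days with a mean of 1.16.

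Counts called in the gene and marker lists below stand beside the shares of all genes called. These were 10.1% in the first week, 35.9% between 7 days and 10 weeks and 40.1% between 24 hours and 10 weeks. Of 16 other calcium channel subunit genes tested, 0 were called in the first week by limma, 1 was higher and 3 were lower at 10 weeks against 7 days, and 1 was higher and 2 were lower at 10 weeks against 24 hours. In the first week 1 of them, Cacng7, had an unadjusted p under 0.05. Against 24 hours the adult count rose from 3 to 5 without 10-week replicate 2 and to 6 without 10-week replicate 3, and against 7 days it fell from 4 to 2 without 7-day replicate 2. Cacna1s, the L-type pore of skeletal muscle, rose by 0.82 after the first week (adjusted p = 8.46e-06) from a dim signal, with means of 4.78, 4.68 and 5.50. Cacna2d2, another alpha-2-delta gene, was lower by 1.28 at 10 weeks against 24 hours (difference -1.28, adjusted p = 0.000101), the opposite of Cacna2d1. Cacna1d, the L-type pore of sinus node and atrium, was lower at 10 weeks than at 24 hours (log2 difference -0.65, adjusted p = 0.00074). Apart from Cacna2d2 and Cacng7, every gene of the list was dim, under 5.54, the median of all tested values, on at least 8 of the 9 arrays.

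Without the 7-day arrays with brown fat RNA, Cacna2d2 was not called between 7 days and 10 weeks (log2 difference -0.71, adjusted p = 0.0593), nor were Cacna1d (adjusted p = 0.248) and Cacna1a (0.305). Cacna1d was also lower at 10 weeks than at 7 days (-0.41, adjusted p = 0.0141), a call lost without 10-week replicate 2 (adjusted p = 0.0525) or 7-day replicate 2 (adjusted p = 0.0549). The neuronal pore gene Cacna1a differed by -0.23 in that comparison (adjusted p = 0.0198) and lost its call without 10-week replicate 3 (adjusted p = 0.0533), 7-day replicate 2 (0.0666) or 7-day replicate 3 (0.0642). Cacng7, a gamma subunit gene, had the highest first-week difference of the list, 0.45 (adjusted p = 0.0618); it was called without 10-week replicate 2 (adjusted p = 0.00552) or 10-week replicate 3 (0.0306). The median difference of the 16 genes was 0.0047, 0.08 and 0.11 in the 3 comparisons, in the order used above for the 8 genes.

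Calcium channel regulators, which bind the channel or hold it in the membrane, split in both directions. Of 13 tested, 2 rose and 1 fell in the first week, 2 rose and 6 fell between 7 days and 10 weeks, and 4 were higher and 3 lower at 10 weeks than at 24 hours; their medians were 0.10, -0.15 and 0.07. Akap5, an anchor that brings protein kinase A to the channel, rose by 0.74 in the first week (adjusted p = 0.00192). Cav3, the muscle caveolin, fell by 0.88 after it (adjusted p = 0.000113). Jph2, which ties the membrane to the calcium store, rose by 0.45 (adjusted p = 0.000944), and Rrad, a small GTPase that restrains L-type current, was 0.38 higher at 10 weeks than at 24 hours (adjusted p = 0.00458).

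The calmodulin genes Calm2 and Calm3, whose product is the calcium sensor of the channel, fell between 7 days and 10 weeks by 0.44 (adjusted p = 0.000172) and 0.47 (adjusted p = 0.000148). Calm2 had risen by 0.28 in the first week (adjusted p = 0.0127), a call lost without 24-hour replicate 3 (adjusted p = 0.055) or 7-day replicate 3 (0.0624). Akap7, another kinase anchor, rose by 0.50 after the first week (adjusted p = 2.87e-05). Its first-week fall of 0.21 (adjusted p = 0.0271) was lost without any one of the 6 arrays compared (adjusted p 0.0555 to 0.112). The first-week count fell from 3 to 1 without 24-hour replicate 3 or 7-day replicate 3. Without the 7-day arrays with brown fat RNA the calls lost were those of Jph2 after the first week (adjusted p = 0.0583) and of Calm2 (0.298) and Akap7 (0.316) within it.

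Of 5 other pacemaker channel genes tested, 2 fell in the first week, 1 fell between 7 days and 10 weeks, and 2 were lower at 10 weeks than at 24 hours, and 0 were called higher. Medians were -0.13, 0.00 and -0.03. The genes called were the Popeye genes, which encode membrane proteins that bind cyclic AMP and are known from pacemaker function. Bves fell by 1.05 and then by 0.57 (adjusted p = 1.77e-05 and 0.000101), for a 3.06-fold difference in all, and Popdc2 fell by 0.28 in the first week (adjusted p = 0.00261). The Popdc2 call was lost without the 7-day arrays with brown fat RNA (adjusted p = 0.0768). Hcn3, the remaining HCN isoform tested, had means of 4.56, 4.52 and 4.53 and was not called; median centring of the arrays added 1 gene called higher to both comparisons with 10 weeks.

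Of 10 other sodium channel subunit genes tested, 1 was called, and it was called in every comparison. Scn7a, a member of the family that senses sodium concentration, rose from a mean of 6.58 to 7.69 and 8.34, by 1.11 in the first week (adjusted p = 0.000461) and by 0.64 thereafter (adjusted p = 0.00241). The medians of the list were 0.05, 0.03 and 0.05. Apart from Scn7a, every gene of the list was dim, under 5.54, the median of all tested values, on all 9 arrays. Without 24-hour replicate 1, 2 genes of the list were called at 10 weeks against 24 hours.

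Among 9 sodium channel partners tested, 1 rose and 2 fell in the first week, 3 rose and 3 fell between 7 days and 10 weeks, and 2 were higher and 3 lower at 10 weeks than at 24 hours, with medians of -0.03, 0.10 and 0.02. Fgf12, an intracellular FGF-homologous factor that binds the channel, fell by 2.55 after the first week, or 5.86-fold (adjusted p = 4.65e-05). Its 10-week signals were dim and spread, at 3.96, 5.22 and 4.75, all under 5.54, the median of all tested values. With 1 array left out the log2 difference ran from -2.84 to -2.21. Nedd4l, the ubiquitin ligase that removes channels from the membrane, was 0.86 lower at 10 weeks than at 24 hours (log2 difference -0.86, adjusted p = 4.32e-07). Ank3, the ankyrin that anchors the channel at the intercalated disc, fell by 0.59 in the first week (adjusted p = 0.000317). Rangrf and Gpd1l, both linked to trafficking or current of sodium channels, rose by 0.79 and 0.43 after the first week (adjusted p = 0.000126 and 0.00149).

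Fgf14, a relative of Fgf12, rose by 0.40 in the first week (adjusted p = 0.0191) and then fell by 0.38 (adjusted p = 0.00705). The rise lost its call without 24-hour replicate 2 or 3 or 7-day replicate 2 or 3 (adjusted p 0.0649 to 0.083), and without the 7-day arrays with brown fat RNA neither step was called (adjusted p = 0.308 and 0.162). The first-week difference of Fgf12 itself, 0.76 (adjusted p = 0.139), was called without 10-week replicate 1 (adjusted p = 0.0452). Under median centring or quantile normalization the partners split into 5 higher and 3 lower between 7 days and 10 weeks.

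Transcription factors known to act on channel genes were mostly called lower where they were called. Of all genes, 4.81%, 18.9% and 20.6% were called lower in the 3 comparisons, in the order used above, and 5.27%, 17.0% and 19.5% higher. Of 14 tested, 3 fell in the first week, 1 rose and 6 fell between 7 days and 10 weeks (3 and 5 under median centring or quantile normalization), and 6 were lower and 0 higher at 10 weeks than at 24 hours; medians were -0.15, -0.13 and -0.22. Tbx18, a factor of the sinus node and epicardium, fell by 1.13 after the first week (adjusted p = 8.7e-07), and Rest, a repressor whose known targets include Hcn4 and Cacna1h, fell by 0.71 (adjusted p = 0.00036). Tbx5 and Gata4, general cardiac factors, fell by 0.68 and 0.41 (adjusted p = 0.00362 and 0.000265). Tbx3, the repressor that marks the conduction system, was not called, with means of 6.44, 6.38 and 6.54.

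Mef2a, a muscle factor, was 0.59 lower at 10 weeks than at 24 hours (log2 difference -0.59, adjusted p = 7.05e-06), while its first-week fall of 0.21 (adjusted p = 0.0306) was lost without any one of the 6 arrays compared (adjusted p 0.0634 to 0.1). Irx5, a factor that grades potassium channel expression across the ventricular wall, fell by 0.42 in the first week (adjusted p = 0.00774) and rose by 0.39 after it (adjusted p = 0.00309). The first-week fall of Tbx18, 0.35 (adjusted p = 0.0113), lost its call without 7-day replicate 3 (adjusted p = 0.0572), and the first-week count of the list then fell from 3 to 1. Without the 7-day arrays with brown fat RNA, 0 of the list were called in the first week by limma, with Irx5 at an adjusted p of 0.149, Tbx18 at 0.101 and Mef2a at 0.231. The later steps of Irx5 (adjusted p = 0.0675) and Tbx5 (0.132) were not called then either.

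**Figure D4:**
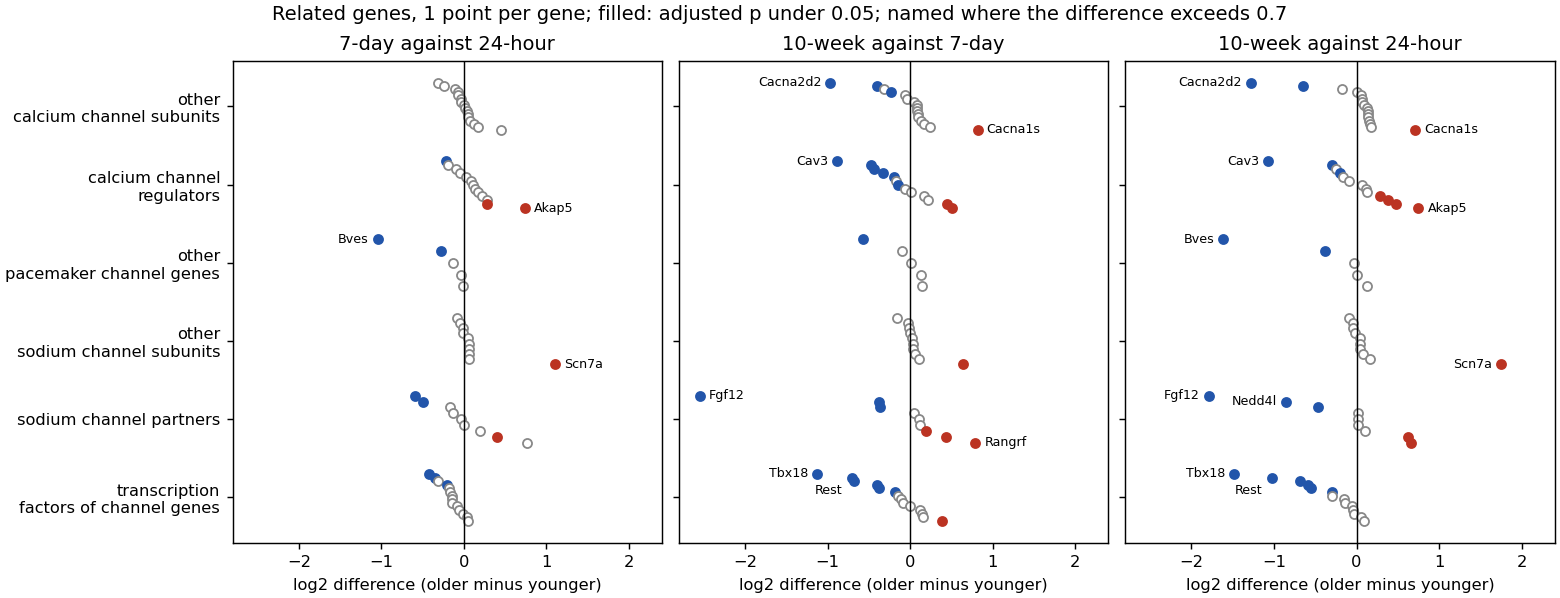
Log2 difference, older minus younger age (horizontal axis), of related genes in 6 lists (vertical axis) for the 3 comparisons (panels); each point is 1 gene, filled red or blue where called higher or lower at an adjusted p under 0.05, and genes called with a difference above 0.7 in size are named. Most points of the other calcium and sodium channel subunits lie near 0 and are open, and Scn7a stands alone to the right in its list. Apart from Scn7a, Cacna2d2 and Cacng7, genes of the other calcium and other sodium channel subunit lists were dim, under the median of all tested values on at least 8 of 9 arrays.

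Working cardiomyocyte markers, which define the labelled tissue, were bright on every array: their summed linear signal lay between 51260 and 55910 on all 9 arrays, with Myh6 between 12.62 and 12.80 on the log2 scale. Of these 10 markers, 1 was higher and 3 lower at 7 days than at 24 hours, 2 and 0 at 10 weeks against 7 days, and 3 and 4 at 10 weeks against 24 hours; without 10-week replicate 3 the middle count was 4 higher. Arrays of 1 age correlated at r = 0.994 or above. At least 2 arrays held the same deposited value for 51.5% of all tested genes and for 4 of the 8 channel genes (Cacna1g, Cacna1h, Cacnb2 and Hcn4).

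Genes of the atrium and of the conduction system moved over the same ages as Cacna1g. They were not alone in this: fibroblast and endothelial markers, given below, were also mostly lower at 10 weeks than at 7 days, and macrophage markers were higher. Of 7 atrial markers, 6 were lower at 10 weeks in both comparisons with the younger ages and 1 was higher at 7 days than at 24 hours (0 without 7-day replicate 3, and 2 without 24-hour replicate 1 or 10-week replicate 2); without the 7-day arrays with brown fat RNA, 2 were lower at 10 weeks than at 7 days. Their summed linear signal was 11840 to 15260 at 24 hours, 13330 to 15930 at 7 days and 6408 to 7694 at 10 weeks. Of 10 sinus node and conduction markers, 5 were lower and 1 higher at 10 weeks in both comparisons, and the sum was 850.1 to 1131, 844.6 to 1123 and 646.3 to 679.0. Shox2 and Isl1, which define the sinus node, were dim on all 9 arrays (3.99 to 4.39 and 3.43 to 3.72). Bmp10, an atrial growth factor, read 9.32 to 10.11 at 7 days and 4.29 to 4.57 at 10 weeks, and Myl7, the atrial light chain, ranged from 4.70 to 8.43 among the 10-week arrays. In whole tissue, fewer cells of a type and less RNA per cell cannot be told apart, and the part of the atrial and node genes in the fall of Cacna1g was not tested.

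The spread of Hcn4 at 7 days ran beside that of genes from other cells. Vsnl1, a gene of the sinus node and atrium, read 6.52, 7.95 and 7.61 on the 7-day arrays, lowest on replicate 1 as Hcn4 and Cacna1g were. Ucp1, which defines brown fat, read 4.30, 11.23 and 9.27, so the replicates with the higher Hcn4 were those with brown fat RNA. At 24 hours Vsnl1 read 7.70, 6.60 and 6.29: Hcn4 was likewise highest on replicate 1, but both Hcn4 and Cacna1g were lowest on replicate 2, and Cacna1g was highest on replicate 3, where Vsnl1 was lowest. Whether tissue taken along with the heart muscle had a part in these Hcn4 values was not tested.

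**Figure D5:**
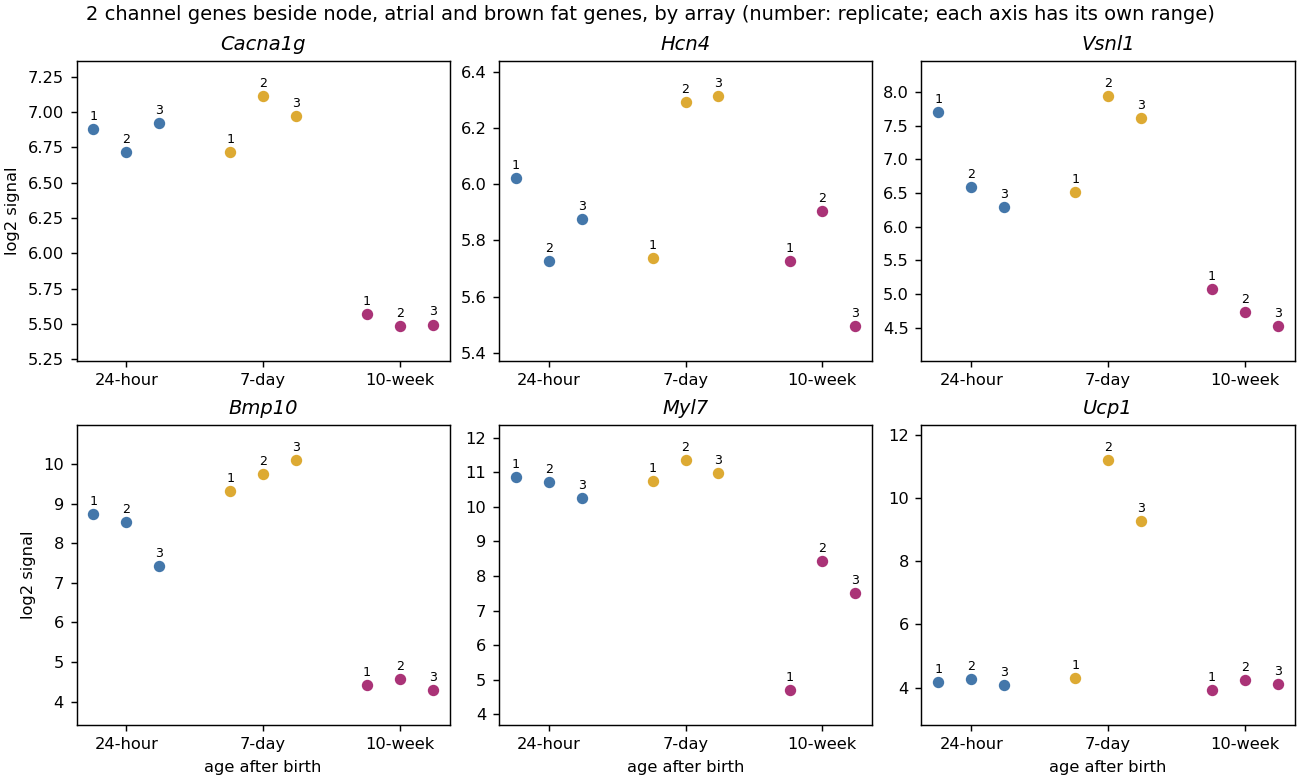
Log2 signal (vertical axis, with its own range in each panel) on each array by age (horizontal axis) of Cacna1g and Hcn4 and of Vsnl1 (sinus node and atrium), Bmp10 and Myl7 (atrium) and Ucp1 (brown fat); each dot is 1 array and its number the replicate. At 7 days replicate 1 is the lowest dot for all 6 genes, and Ucp1 stands above 9 on replicates 2 and 3 alone.

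Markers of other cells changed as well, and their part in the channel results was not tested. Of 6 macrophage markers, 5 were higher in the first week and 6 after it. Of 7 fibroblast markers, 2 were higher in the first week (4 without 7-day replicate 1) and 5 were lower after it. All 7 had an unadjusted limma p under 0.05 in the first week, with a median log2 difference of 0.51. Of 6 endothelial markers, 2 were higher in the first week and 5 were lower after it. Of 6 smooth muscle and pericyte markers, 1 was higher in the first week (2 without 7-day replicate 1, and 1 higher with 1 lower without 7-day replicate 2), and after it 1 was higher and 2 lower (1 and 4 without 7-day replicate 1); Acta2, a smooth muscle actin, fell by 1.91 (adjusted p = 5.44e-06). Of 4 ventricular markers, 2 were lower in the first week and 1 was lower after it, with 1 more higher without 10-week replicate 3, and Myl2 stayed between 12.85 and 12.94.

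Calls among nerve, skeletal muscle, fat, lung and liver markers stand beside 10.1% of all genes called in the first week and 35.9% after it. Fat, lung and liver signals differed widely between arrays of 1 age. At 7 days the summed linear signal was 2379 to 5904 for fat and 99.34 to 447.1 for lung and liver. Of 5 nerve and glia markers 0 were called by limma in any comparison, and 0 had an unadjusted p under 0.05; without 7-day replicate 2, 1 was higher at 10 weeks than at 24 hours. Of 8 skeletal muscle markers 1 was lower in the first week and 0 were called by limma after it. The lower one was Ckm (log2 difference -0.41, limma adjusted p = 0.00378), which is also counted among the working cardiomyocyte markers. After the first week 1 skeletal muscle marker had an unadjusted p under 0.05, and 1 was called higher without 10-week replicate 1 or 3. Of 5 fat markers, 1 was higher in the first week and 1 lower after it. The first of these counts was 0 without 24-hour replicate 1 or 2 and 4 without 7-day replicate 1, and the second was 0 without any one 10-week array or 7-day replicate 2 or 3 and 4 without 7-day replicate 1. In the first week 4 of the 5 fat markers had an unadjusted limma p under 0.05, with a median log2 difference of 1.12. Of 6 lung and liver markers, 1 was higher in the first week and 1 lower after it, the latter 2 without 7-day replicate 3 and 0 without any other one of the arrays compared. Scgb1a1, an airway gene, read 5.83 on 24-hour replicate 1 and 6.83 on 7-day replicate 2 and at most 2.76 elsewhere.

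The genes whose course over the 9 arrays lay nearest to each channel gene were found by the root mean square difference of log2 values centred on each gene's mean, among 10566 genes with an age mean above the median signal. Nearest to Scn4b were Lncpint (0.107), Ppip5k1 (0.108) and Acta1 (0.150), and nearest to Cacna2d1 were Lpl (0.0568), Nrd1 (0.0657) and Slc41a1 (0.0694). For Hcn2 these were Phospho1 (0.145), Hjv (0.158) and Pltp (0.172), with means that rose at each age. Cacna1g lay nearest to Pole (0.0819), Lama4 (0.0894) and Mpzl1 (0.105), and Cacna1h to Phactr2 (0.0554), Washc2 (0.0584) and Pgk1 (0.0605).

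Cacna1c, with its low point at 7 days, lay nearest to Garem1 (0.0771), Adam22 (0.0818) and Prkaa2 (0.0883). Hcn4 had Wnt5a (0.133), Kctd17 (0.135) and Dap (0.136) as its nearest genes, and flat Cacnb2 had Lig4 (0.0483), Leprotl1 (0.0543) and Amn1 (0.0544). All arrays entered this measure, so the likeness is a description of these 9 arrays.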

How the data were processed

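Each of the 9 arrays (3 per age) has 1 column of deposited log2 signals, which the submitters' processing notes tie to MAS5 (5.0). How probes were summarised and scaled, and any detection calls, are unstated in those notes and in the file header; the log2 base was read from the range of the deposited values (1.85 to 13.58). Array medians differed by at most 0.0485, and no further normalization was applied. Probe sets were named through the platform annotation: of 35556 features, 21789 had 1 symbol, 1621 had several and 12146 were unlisted; 21698 of the single symbols were matched to current RefSeq symbols by Entrez identifier. The highest-mean probe set stood for each gene.

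With limma 3.58.1 in R 4.3.3, all 9 arrays were fitted with 1 mean per age (lmFit; eBayes, trend by intensity). The Benjamini-Hochberg adjustment ran over 19938 genes, with 0.05 as the limit for a call. The fit was tested on simulated data. Ratios were tested by exact permutation in Python 3.11.15 with numpy 2.4.6. The number of arrays limits the precision.

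The 8 genes and all lists were chosen with earlier results of these data known. The lists were other calcium channel subunits, calcium channel regulators, other pacemaker channel genes, other sodium channel subunits, sodium channel partners, transcription factors of channel genes, and markers of working cardiomyocytes, ventricle, atrium, sinus node and conduction system, smooth muscle and pericytes, fibroblasts, endothelium, macrophages, nerve and glia, fat, skeletal muscle, and lung and liver. Named were the 8 genes, per list and comparison up to 4 called genes of largest difference (or the largest 1 where none was called), the 3 nearest genes by course, and marker genes that define a list or are known to differ between arrays. Hcn3, Tbx3, Acta2, Vsnl1, Bmp10, Isl1 and Ckm were added after their values were seen. Alternatives were other scalings, a floor or filter for dim signals, all features, the mean of probe sets, other variance estimates, array weights, only the arrays of 2 ages, a replicate block, each array left out, and both 7-day arrays with brown fat RNA left out. RefSeq promoter windows came from build GRCm38.p6.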

Additional observations from a re-analysis of the deposited data

How the results depend on the processing

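The 8 channel genes kept their direction wherever they were called, and the counts of them called stayed within 1.5 times the reported ones in all 21 alternative settings. All 6 ratios kept their call in the 12 settings run for them (the mean of probe sets, the floor for dim signals, each array left out, and both 7-day arrays with brown fat RNA left out). Of 501 alternative values over genes and comparisons, 483 kept their side of the threshold, 16 lost a call and 2 gained one. For 27 related genes, 1621 such values kept their side, 41 lost a call and 27 gained one. The count over all genes was less stable in the first week, where 2009 genes were called: 3367 with array weights, 1149 to 2316 with 1 array left out (1283 without 24-hour replicate 1, 1158 without 24-hour replicate 2, 1149 without 7-day replicate 3), and 516 without both 7-day arrays with brown fat RNA, which also left 4156 of 7165 calls between 7 days and 10 weeks; the cause was not tested beyond the smaller number of arrays. With 1 array left out, 6124 to 7275 genes were called between 7 days and 10 weeks and 6772 to 8085 between 24 hours and 10 weeks. Median centring changed the split of first-week calls from 1050 higher and 959 lower to 888 and 1247, and that of 7 days to 10 weeks from 3388 and 3777 to 5247 and 3307. Cacnb2 was too dim for the fit of brighter genes only. Dim signals limit Cacnb2 and the younger values of Scn4b most.

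The labels do not say whether replicate numbers pair arrays across ages. Over all genes, deviations from the age mean correlated at -0.17 to 0.13 for same-numbered arrays and at -0.22 to 0.25 for different numbers. Same-numbered arrays were no more alike by this measure, which with 3 arrays per age cannot exclude a pairing. With the replicate number as a block, 1734, 6916 and 7724 genes were called in the 3 comparisons, and the later difference of Cacna1c, 0.22, had an adjusted p of 0.0742.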
